A study of Mus musculus with 6 samples.

Results

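Described here are the pancreatic islets of mice that received vehicle and no bisphenol A: 3 of the 6 samples of a study of short exposure to that compound in the living animal. They were chosen by their sample titles, which call them islet controls and number them 1 to 3. The animals were OF1 male mice, 10 weeks old. The series' design gives a vehicle of tocopherol-stripped corn oil, 100 µL under the skin, for 4 days, with islets isolated 16 hours after the last injection, while the samples' treatment protocol speaks of 2 days. RNA of every sample went onto a separate Affymetrix chip, on which a transcript is read near its 3′ end by one or more probe sets. By their labels the samples are biological replicates, each drawn from 3 experiments according to the design text. The number of mice behind a sample was not stated.

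Islets are clusters of hormone-secreting cells scattered through the pancreas. Beta cells secrete insulin, alpha cells glucagon, delta cells somatostatin and PP cells pancreatic polypeptide, and all of them package peptide hormones into dense granules that are released on demand. Glucose enters the beta cell through a transporter and is metabolised, which closes ATP-sensitive potassium channels, opens voltage-gated calcium channels and sets off exocytosis. Around the islets lies the exocrine pancreas, whose acinar cells make digestive enzymes, and isolated islets can carry some of that tissue with them.

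The table listed 45101 probe sets. Without 64 that serve as chip controls 45037 remained, and 34945 of these carried the name of a single gene. They stood for 18193 genes, each represented by its probe set of highest mean over the 3 arrays. Signals are given on the log2 scale, where a difference of 1 is a factor of 2. The arrays had medians of 6.59 to 6.63 and highest values of 15.27 to 15.31, and in each array the brightest probe set was the one for Ins2. Replicates 1 and 2 correlated at 0.993 over all probe sets, and each correlated less with replicate 3 (0.985 and 0.986). Replicate 3 stood apart in several groups of genes described further on, and the counts of genes that vary most are given with and without it. Probe sets differ in how well they bind their target, so the order of genes by signal describes the array's readout and is no order of transcript amounts. Among the 9010 genes with more than 1 probe set, the brightest and the dimmest differed by a median of 2.52. Only 3 arrays were measured, which limits the precision of every value, and no test was made, since there is 1 group.

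The signal of the 5 hormone genes that mark endocrine cells put the label to the check, and all of them lay at the top. Ins2, the gene of insulin 2, read 15.27, 15.31 and 15.30 in replicates 1 to 3. Gcg, which encodes proglucagon, read 15.14, 15.07 and 15.08. These were the first and second genes in each of the 3 arrays, and their values did not overlap. Iapp, the gene of islet amyloid polypeptide that beta cells release with insulin, read 14.87, 14.76 and 14.81, and ranked 7, 12 and 7 in the 3 arrays. Pancreatic polypeptide (Ppy) read 13.98, 13.87 and 14.08, and somatostatin (Sst) 13.80, 13.66 and 13.87. Replicate 2 had the lowest value of Gcg, Iapp, Ppy and Sst, though the 3 values of each gene lay within 0.21 of each other. In bulk islets fewer cells of a type and less RNA per cell cannot be told apart. The Ins2 signal was the highest of each array, and whether it was saturated was not tested. Ins1, the other insulin gene of the mouse, was not analysed here. The Ins2 probe set has the suffix x_at, by which Affymetrix marks probes that can also bind other transcripts, so a share of Ins1 in its signal cannot be told apart.

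**Figure D1:**
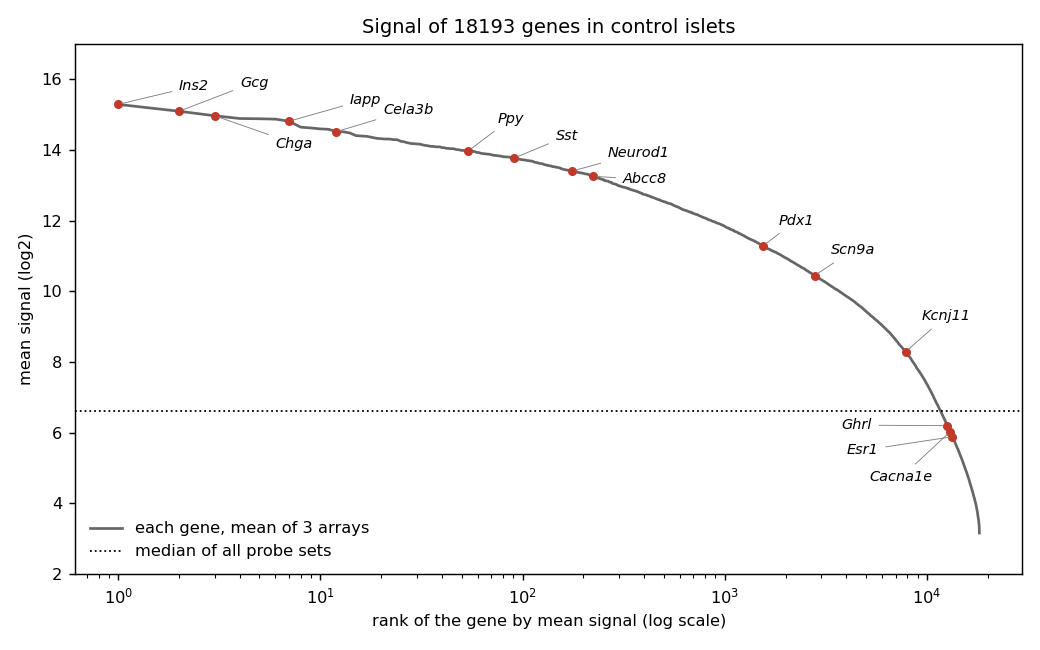
Mean log2 signal of the 18193 genes (3 control arrays) against their rank on a log axis, with selected genes marked in red and the median of all probe sets as a dotted line. Ins2 stands first at 15.29, the other hormone genes follow within the first 100 ranks, and Esr1, Ghrl and Cacna1e lie below the dotted line at 6.61.

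The 20 genes of highest mean signal belonged to few kinds. Besides Ins2, Gcg and Iapp they held the genes of 5 granule proteins. Chromogranin A (Chga) had 14.97 ± 0.06 (SD, n = 3, as for the values that follow), chromogranin B (Chgb) 14.65 ± 0.05, secretogranin 2 (Scg2) 14.39 ± 0.20 and secretogranin 3 (Scg3) 14.33 ± 0.06. Carboxypeptidase E (Cpe), which trims prohormones, had 14.59 ± 0.06. Ttr, the transthyretin gene and a marker of alpha cells, had 14.88 ± 0.07, and Ero1b, an oxidase that drives disulfide formation in the endoplasmic reticulum, 14.87 ± 0.01. Hadh, a dehydrogenase of fatty acid oxidation that restrains insulin secretion, had 14.89 ± 0.04. The immediate early gene Fos, which is induced within minutes by stimulation, stood at rank 9 with 14.63, 14.57 and 14.67.

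Translation was represented in that group by Eef1a1 (14.60 ± 0.03), Tpt1 (14.51 ± 0.06) and the ribosomal protein gene Rps29 (14.36 ± 0.08). The imprinted gene Peg3 (14.32 ± 0.11), Tsc22d1 (14.41 ± 0.00) and Atp6ap2, an accessory subunit of the proton pump (14.398 ± 0.04), completed the steady members. Tsc22d1 had the smallest range of the 500 brightest genes, with 14.404, 14.41 and 14.41. The remaining pair was unsteady. Cela3b, a pancreatic elastase gene, read 14.92 and 15.05 in replicates 1 and 2 and 13.58 in replicate 3, and 2210010C04Rik read 14.74, 14.79 and 13.91. Of the 19 pairs of neighbours in this order, 3 did not overlap over the arrays: Ins2 over Gcg, Gcg over Chga, and Iapp over Chgb. The order of the others is within the spread between arrays.

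**Figure D2:**
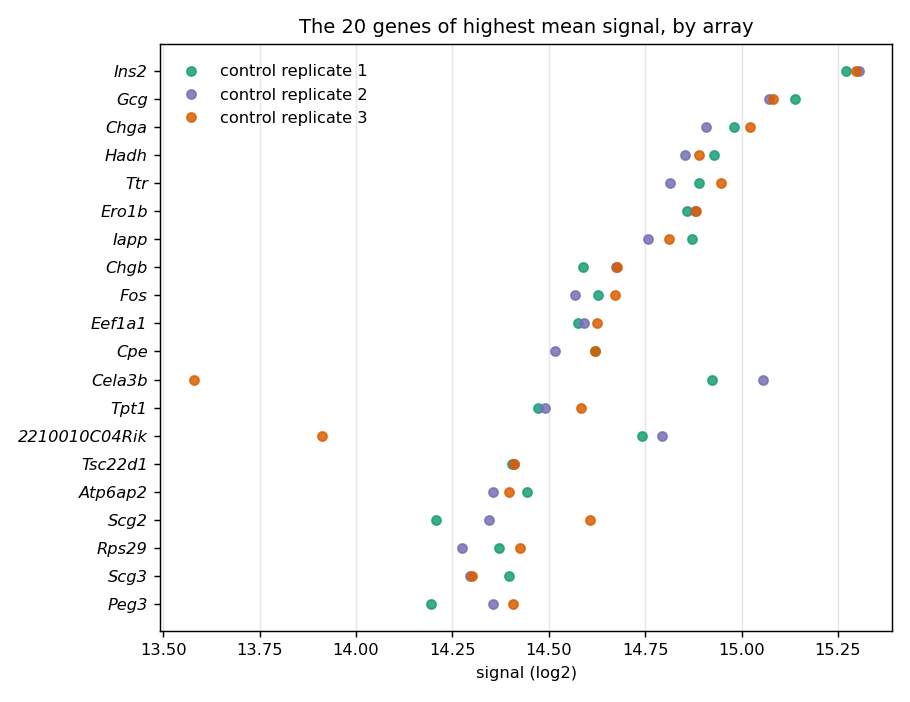
Log2 signal of the 20 genes of highest mean, a point per control array. Most genes have 3 points close together, Scg2 has a wider spread (14.21 to 14.61), and replicate 3 lies far below the others for Cela3b (13.58) and 2210010C04Rik (13.91).

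Among the 100 brightest genes, 0.55% of all genes and down to a mean of 13.72, the median range over the arrays was 0.14, and 70 genes had a range under 0.2. Cytosolic ribosomal protein genes made up 12 of the 100, and genes of folding and secretion in the endoplasmic reticulum 11. A further 8 were in the list of acinar genes, which did not hold 2210010C04Rik, 5 in that of hormones and 5 in that of prohormone processing and granins. Another 46 of the 100 were in none of the gene lists. The 500 brightest genes were 2.75% of all. They held 11 of 18 named genes of prohormone processing and granins, 28 of 44 ribosomal protein genes, 24 of 45 endoplasmic reticulum genes, 9 of 16 translation factors and 21 of 60 genes of oxidative phosphorylation. Among the 100, 25 genes were read by probe sets with the suffix x_at and 8 by s_at, 33.0% together against 9.69% of all genes. Their signal may therefore include related transcripts.

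The first stretch of DNA before a gene's start carries part of the signals for its transcription, and it is shown for 2 of the hormone genes at the top of the range. The sequences are from RefSeq for GRCm38.p6, the 200 bases before the start, 5′ to 3′ on the gene's strand. Capitals mark every match on either strand. One motif searched was TATAAA, known as the promoter element that positions the start. Another was CATCTG, an E-box of the kind that islet factors bind. Gcg lies at chr2:62483654-62483853 on the minus strand and Iapp at chr6:142298225-142298424 on the plus strand. The table used held no entry for Ins2.
Gcg: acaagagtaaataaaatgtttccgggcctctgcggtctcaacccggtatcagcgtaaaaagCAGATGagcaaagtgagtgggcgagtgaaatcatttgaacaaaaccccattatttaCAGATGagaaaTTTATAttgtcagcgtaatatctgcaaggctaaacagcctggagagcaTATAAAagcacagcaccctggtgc
Iapp: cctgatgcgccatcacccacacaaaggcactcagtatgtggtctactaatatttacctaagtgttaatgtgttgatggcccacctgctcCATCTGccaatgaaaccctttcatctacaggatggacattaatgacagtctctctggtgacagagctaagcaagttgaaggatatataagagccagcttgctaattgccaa

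The Gcg window held TATAAA at 24 bases before the start and, on the other strand, at 72, and CATCTG on the other strand at 83 and 139 bases before it. The Iapp window held CATCTG at 111 bases before the start. Of the 14 genes of islet hormones and peptides, 12 had promoters in the table, 16 in number, of which 31.2% held CATCTG on either strand against 11.6% of all 32851 promoters. For TATAAA the shares were 18.8% and 9.96%. Of the 100 brightest genes 81 had promoters, 100 in number, of which 15% held TATAAA and 9% CATCTG. A match describes the letters and is no evidence of a bound site.

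Granule and processing genes were bright as a whole. All 18 named members lay above the median of all probe sets (6.61), which here divides bright from dim, and their median signal was 13.05. Of all genes 35.7% were dim. The prohormone convertase gene Pcsk1 read 11.81, 12.06 and 11.51. Its partner Pcsk2 was not analysed here. The zinc transporter gene Slc30a8, whose product loads zinc into insulin granules, read 13.37, 13.32 and 13.46. Vgf, the gene of a granule peptide precursor that nerve activity induces, had the widest range of this group (8.92, 8.53 and 9.72), with replicate 3 the highest. Pam, the peptide-amidating enzyme, had 11.47, 12.16 and 11.19, with replicate 2 the highest.

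All 17 named genes of glucose uptake and metabolism were above the median of all probe sets, with a median signal of 11.65. At or under that median were 35.7% of all genes. None of the 17 had a range over 1, against 3.18% of all genes above the median. The glucose transporter gene Slc2a2 read 13.94, 13.91 and 13.87. G6pc2, an islet glucose-6-phosphatase, read 13.85, 13.99 and 13.80, and the malate dehydrogenase gene Mdh1 13.49, 13.32 and 13.46. The widest ranges were those of Pfkl (9.51, 10.10 and 9.66), Gpd2 (12.12, 11.61 and 11.88) and Slc2a1 (9.31, 8.88 and 8.98).

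The 2 subunits of the beta cell's ATP-sensitive potassium channel were far apart in signal. Abcc8, the sulfonylurea receptor, read 13.11, 13.23 and 13.42, and Kcnj11, its pore, 8.21, 8.47 and 8.19. Their assembly uses equal numbers of both, but the signals come from different probe sets and cannot be set against each other as amounts. The vascular counterparts Abcc9 and Kcnj8 had 9.04 ± 0.39 and 7.51 ± 0.11.

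Exocytosis genes were all above the median of all probe sets (24 of 24, median 10.71), where 35.7% of all genes were not. Vamp3 (12.88 ± 0.17), a vesicle SNARE, Cplx2 (12.53 ± 0.11), a complexin that clamps fusion, and the synaptotagmin gene Syt13 (12.49 ± 0.19) were the brightest. Doc2b, a calcium sensor of fusion, had 7.07, 7.06 and 8.11, with replicate 3 apart from the others. Rab37 (9.32, 8.76 and 9.60) and Cplx1 (10.01, 9.86 and 9.30) had the next widest ranges.

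Transcription factors of the endocrine lineage spread over most of the signal range, from 4.84 to 13.40 with a median of 9.79 over 25 named genes. Neurod1 read 13.40, 13.28 and 13.53, and Insm1 12.74, 12.37 and 12.75. Isl1 had 12.37 ± 0.06. The beta cell factors Nkx6-1 and Pdx1 had 12.01 ± 0.15 and 11.29 ± 0.05. No member above the median of all probe sets had a range over 1, against 3.18% of all genes above it. The widest ranges among these members were those of Mlxipl, the glucose-responsive factor ChREBP (11.46, 11.54 and 12.25), Mnx1 (9.93, 9.32 and 10.11) and Neurog3 (8.63, 8.73 and 8.01). Neurog3 directs endocrine progenitors in the embryo.

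**Figure D3:**
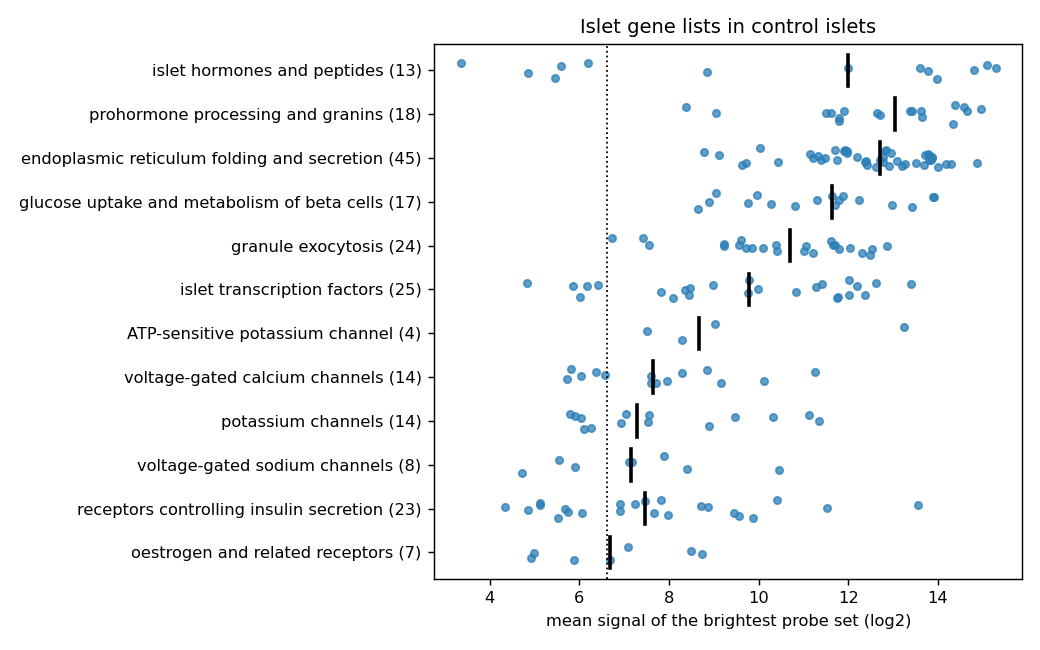
Mean log2 signal of the brightest probe set of each named gene (points) in 12 gene lists, with the number of genes in brackets, the list median as a black bar and the median of all probe sets (6.61) as a dotted line. Granule, folding and metabolic genes lie to the right of the line, while ion channels and receptors spread across it.

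Dim genes were counted next. Of all 18193 genes 35.7% had a mean at or under 6.61, and of the 166 named genes in 11 lists of islet function 34 did, or 20.5%. None were in the lists of glucose uptake, the ATP-sensitive channel, prohormone processing or exocytosis. A poor probe and a scarce transcript cannot be told apart in a dim signal.

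Among hormones and peptides 5 of 13 were dim (38.5%, against 35.7% of all genes). Ghrl, the ghrelin gene of epsilon cells, read 6.34, 6.06 and 6.20, and Gast (5.59 ± 0.08), Nmu (5.45 ± 0.17), Cck (4.86 ± 0.18) and Crh (3.36 ± 0.18) were lower. Peptide YY (Pyy), which is made by PP and alpha cells, read 13.57, 13.78 and 13.47, while Npy read 9.29, 8.97 and 8.30. Of the 25 transcription factors 5 were dim: Pou3f4 (6.41 ± 0.39), Sox9 (6.16 ± 0.19), Pax4 (6.02 ± 0.17), Onecut1 (5.86) and Foxa1 (4.84 ± 0.19). Sox9 is a factor of duct cells and Pax4 one of endocrine progenitors.

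Among ion channels the share of dim genes was 35.7% for calcium and for potassium channels and 37.5% for sodium channels, near the 35.7% of all genes. Of 14 voltage-gated calcium channel genes 5 were dim, namely Cacna1h, Cacnb4, Cacna1e (6.17, 5.93 and 5.995), Cacna2d3 and Cacna1g. The brightest were the auxiliary subunit gene Cacna2d1 (11.26 ± 0.17), the L-type pore gene Cacna1d (10.11 ± 0.28) and the beta subunit gene Cacnb2 (9.17 ± 0.08). The pore genes Cacna1a (7.74, 8.07 and 9.06) and Cacna1c (8.76, 8.55 and 9.22) were highest in replicate 3, and the auxiliary gene Cacna2d2 (8.04, 8.15 and 6.61) was lowest there. Of 8 sodium channel genes 3 were dim (Scn1a, Scn4b and Scn2a). Scn9a, the main sodium channel of mouse beta cells, read 10.38, 10.40 and 10.57 on its brightest probe set, and its dimmest of 5 probe sets averaged 4.03. Scn3b had 8.40 ± 0.20, Scn3a 7.07, 7.05 and 7.40, and Scn8a 7.45, 7.69 and 8.54. Of 14 potassium channel genes 5 were dim: Kcnmb4, Kcnj5, Kcnk10, Kcnj6 and Kcnd3. Kcnmb2, a subunit of the large-conductance channel, had 11.34 ± 0.09, the background potassium channel gene Kcnk16, known for its restriction to the pancreas, 11.12 ± 0.18, and Kcnh2 10.32 ± 0.13. The widest ranges were those of Kcnip4 (7.42, 6.90 and 6.46), Kcnk3 (8.83, 9.20 and 8.68) and Kcnn4 (7.71, 7.24 and 7.72).

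Receptors ranged from 4.34 to 13.55. Ghr, the growth hormone receptor gene, read 13.53, 13.56 and 13.57, the short-chain fatty acid receptor gene Ffar2 11.54, 11.44 and 11.60, and the somatostatin receptor gene Sstr3 10.04, 10.71 and 10.47. The incretin receptor genes Glp1r (7.98 ± 0.04) and Gipr (6.91 ± 0.09), whose products are drug targets in diabetes, were only somewhat above the median of all probe sets, each on a single probe set. Of 23 receptors 8 were dim (34.8%, against 35.7% of all genes): Sstr5, Vipr2, Lepr, Drd2, Htr2b, Avpr1b, Chrm3 and Sstr1. Chrm3, the muscarinic receptor through which nerves stimulate beta cells, read 4.96, 4.93 and 4.68. P2ry1 (7.08, 7.28 and 8.06), Sstr2 (7.50, 7.54 and 6.69) and Galr1 (9.06, 8.75 and 8.33) had the widest ranges of the bright ones. Of 7 receptors for oestrogen and related ligands, Esr1 (5.70, 6.03 and 5.93), Esr2 (5.10, 4.77 and 4.86) and Pgr (5.23, 4.97 and 4.74) were dim. These were 42.9% of the list, against 35.7% of all genes. The orphan receptor genes Esrrg (8.74 ± 0.13) and Esrra (8.48 ± 0.18) were the brightest, and the membrane receptor gene Gper1 read 7.41, 7.14 and 6.72.

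Genes that mature beta cells keep repressed were mostly in the middle of the range, with a median of 8.02 over 20 genes. None were among the 500 brightest (2.75% of all genes). Igfbp4 (10.97 ± 0.36), Oat (9.82 ± 0.27) and Mgll (9.59 ± 0.05) were highest. The monocarboxylate transporter gene Slc16a1 was dim at 5.15, 5.41 and 5.23, as were Maf, Lmo4 and Tst, while lactate dehydrogenase A (Ldha) had 8.59, 8.87 and 8.87. Pdgfra, also a stellate cell gene, was lowest in replicate 3 (8.63, 8.80 and 7.52), followed in range by Igfbp4 (10.95, 11.35 and 10.62) and Mgst1 (9.10, 8.47 and 8.54).

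Folding and secretion genes formed a bright group, with a median of 12.72 over 45 genes and none dim, against 35.7% of all genes. After Ero1b came the disulfide isomerase gene P4hb (14.29 ± 0.13) and the chaperone gene Calr (14.18 ± 0.11). None had a range over 1, against 3.18% of all genes above the median of all probe sets. Sdf2l1 (9.26, 9.63 and 10.25), Pdia3 (10.95, 11.87 and 11.34) and Creld2 (12.07, 12.43 and 12.72) had the widest ranges. Oxidative phosphorylation genes had a median of 12.12 over 60 genes, with Ndufa1 (13.99 ± 0.10), Cox6a1 (13.71 ± 0.12) and Atp5a1 (13.71 ± 0.02) at the top. None of the 59 above the median of all probe sets had a range over 1, against the same 3.18%. Ndufa3 (12.30, 12.50 and 12.99), Uqcrh (10.47, 10.57 and 11.08) and Atp5e (10.89, 10.76 and 11.35) had the widest and were highest in replicate 3. Cox7c was dim. Ribosomal protein genes had a median of 13.20 over 44 genes. Next to Rps29, Rps4x (14.31 ± 0.01) and Rps28 (14.29 ± 0.09) were the brightest, and Rps27 and Rps16 were dim. Rpl12 (6.24, 6.47 and 7.23), Rpl14 (8.89, 8.30 and 9.19) and Rps15 (11.53, 11.18 and 11.98) had the widest ranges. Among translation factors Eif4g2 had 13.89 ± 0.07, and Eif4e (10.85, 11.07 and 10.35), Eif4a1 (11.34, 11.45 and 10.91) and Eif5a (13.14, 13.68 and 13.42) had the widest ranges.

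Genes induced by stress were bright too. Immediate early genes had a median of 10.21 over 32 genes, and 6 were among the 500 brightest (2.75% of all genes). After Fos these were led by Egr1 (13.61, 13.71 and 13.78) and the phosphatase gene Dusp1 (13.43, 13.57 and 13.58). The widest range was that of Dusp6 (7.71, 8.44 and 9.26), ahead of Maff (8.18, 9.05 and 8.54) and Arc (8.11, 8.75 and 7.93). Of 15 heat shock genes 7 were among the 500 brightest (2.75% of all genes), with Hspa1b (14.13, 13.69 and 14.28), Hspa8 (13.75 ± 0.05) and Dnajb1 (13.55, 12.86 and 14.05). Dnajb1, Hspa1a (13.06, 12.58 and 13.49) and Hspa1b were lowest in replicate 2 and highest in replicate 3 on their brightest probe sets. Dnajb1's other probe set read 9.11, 9.28 and 9.89, lowest in replicate 1. Time and handling between killing and lysis are not given per sample, and their part in these levels was not tested.

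Variation between the arrays was small for most genes. Among the 11703 genes above the median of all probe sets the median range was 0.29, and 372 genes (3.18%) had a range over 1, of which 63 had a range over 2. Between replicates 1 and 2 alone 6 genes differed by more than 2. The threshold fell in a continuum, with 1.00 as the smallest range inside it and 0.999 as the largest outside. With no filter on dim genes 502 of 18193 (2.76%) had a range over 1. In 297 of the 372 genes it was replicate 3 that stood apart (farther from the middle value than the array at the other end). It was lower in 167 (1.43% of the genes above the median) and higher in 130 (1.11%). These were 44.9% and 34.9% of the 372. Over all 11703 genes replicate 3 stood apart as the lower array in 25.5% and as the higher in 18.3%. Without replicate 3, 44 genes differed by more than 1 between replicates 1 and 2 when probe sets and filter were chosen anew (43 of the 11703 as chosen above), while leaving out replicate 1 or replicate 2 left 265 and 255. In most of these genes the range is thus the distance of 1 array from the other pair.

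Other probe sets of the same genes read the same RNA and give a check on the chip, not on the biology. Of the 372 genes 129 had a further probe set above the median of all probe sets, 192 in all, and 59.9% of these put the same array apart in the same direction. Over all genes with such probe sets the share was 30.0%. A range over 1 was seen in 35.4% of the 192.

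**Figure D4:**
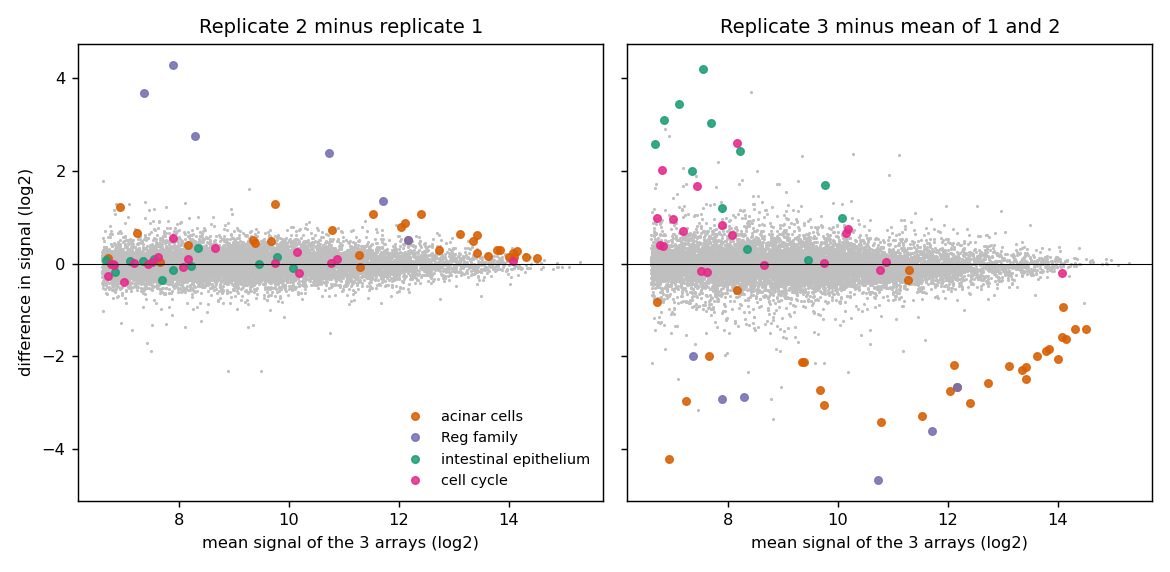
Difference in log2 signal between control arrays against the mean signal, for 11703 genes (grey) and 4 gene lists (coloured). Reg genes have the largest differences between replicates 1 and 2, and in replicate 3 acinar and Reg genes lie below 0 and the 12 intestinal genes above it.

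The 31 acinar genes above the median of all probe sets had a median range of 2.35, against 0.29 for all genes above it. A range over 1 was found in 26 of the 31, against 3.18% of all genes above the median. Between replicates 1 and 2 alone 4 of the 31 differed by more than 1. Replicate 3 was the lowest array for 31 of 31, and 42.2% of all genes above the median were lowest there. As a deviation from its 3-array mean the list averaged 0.46, 0.93 and -1.39 in replicates 1 to 3. Without replicate 3 the list differed by 0.486 between the other arrays. The trypsinogen gene Prss2 read 14.70, 14.86 and 13.37, and the chymotrypsin-like protease gene Ctrl 14.55, 14.82 and 13.07. Further probe sets of Prss2 had ranges of 1.97 to 2.62, and those of Cela3b 1.96 to 3.14, against 1.48 on the brightest of each gene. All of them put replicate 3 apart as the lower array. The carboxypeptidase gene Cpb1 read 14.62, 14.77 and 12.64, and Cpa1 14.27, 14.57 and 12.54. Chymotrypsinogen B1 (Ctrb1) read 14.31, 14.61 and 12.63, and the elastase gene Cela2a 13.88, 14.36 and 11.82. Cela3b ranked 5 and 3 in replicates 1 and 2 and 127 in replicate 3, and Cpb1 ranked 13, 11 and 443. Without replicate 3 the 100 brightest genes held 13 genes of the acinar list rather than 8.

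The widest ranges of the list were those of Prss3, a trypsinogen gene (7.72, 8.95 and 4.12), Gp2, the granule membrane glycoprotein of acinar cells (12.10, 13.17 and 9.35), and Cuzd1 (11.56, 12.30 and 8.51). Pdia2, a disulfide isomerase gene of the pancreas (10.13, 11.42 and 7.73), Dmbt1 (12.86, 13.94 and 10.39) and the amylase gene Amy1 (7.89, 8.56 and 5.26) followed. Ptf1a, the transcription factor that maintains acinar cells, read 8.31, 8.34 and 6.33. The 6 acinar genes with a mean over 14 had a median range of 1.59, and the 12 between 12 and 14 had 2.59. Rbpjl, Aqp8, Erp27 and Cpa3 were dim. Pnlip and Amy2a5 were not analysed here.

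Reg genes, which encode secreted lectins of the exocrine pancreas and gut that injury and inflammation induce, had the largest median range of the lists, 4.27. All 6 above the median of all probe sets had a range over 1 (3.18% of all genes above it), and Reg4 was dim. Between replicates 1 and 2 alone 5 of the 6 differed by more than 1. Reg2 had the largest range of the 11703 genes, with 11.09, 13.48 and 7.62, a factor of 58.2 between replicates 2 and 3. Reg3a read 6.72, 11.02 and 5.94, Reg3b 12.23, 13.60 and 9.31, Reg3d 7.87, 10.64 and 6.39, and Reg3g 6.19, 9.88 and 6.04. Reg1 read 12.80, 13.30 and 10.40. All 6 were highest in replicate 2 and lowest in replicate 3. For Reg3a, Reg3d and Reg3g it was replicate 2 that stood apart, and for Reg1, Reg2 and Reg3b replicate 3. Acinar genes were also highest in replicate 2 on average, by a smaller margin, and their part in the order of the Reg genes was not tested. Reg3b's other probe set read 9.54, 12.18 and 7.03, in the same order, with replicate 2 the one apart.

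The windows before the starts of Reg2 and Cpa1 are shown because their groups differed most between the arrays. They are given as before, with a further motif in capitals where it occurs. This was TTTCCCA on either strand, part of the sequence bound by the acinar factor complex PTF1. Reg2 lies at chr6:78404955-78405154 and Cpa1 at chr6:30639018-30639217, both on the plus strand.
Reg2: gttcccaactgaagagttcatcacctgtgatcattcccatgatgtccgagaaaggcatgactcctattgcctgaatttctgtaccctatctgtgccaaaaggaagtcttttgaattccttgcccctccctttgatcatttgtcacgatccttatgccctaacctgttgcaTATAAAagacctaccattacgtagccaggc
Cpa1: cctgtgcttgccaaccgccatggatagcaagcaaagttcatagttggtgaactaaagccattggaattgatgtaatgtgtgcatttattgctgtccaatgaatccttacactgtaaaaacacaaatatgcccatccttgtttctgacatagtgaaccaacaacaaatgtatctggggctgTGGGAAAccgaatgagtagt

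The Reg2 window held TATAAA at 30 bases before the start, and the Cpa1 window held TTTCCCA on the other strand at 20 bases before it. Of the 26 acinar genes with a range over 1, 21 had promoters, 22 in number, of which 22.7% held TTTCCCA, 27.3% TATAAA and 13.6% CATCTG. Over all promoters 5.4% held TTTCCCA. The 7 promoters of Reg genes held TATAAA in 4 cases and TTTCCCA in 2. The counts are small and describe only these letters in these windows.

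Many genes known for the intestinal epithelium were high in replicate 3 alone, and 26 of 34 named ones had their highest value there, against 30.7% of all genes. This list was drawn up after values of some of its genes had been seen, so its counts describe and do not test. With no filter 17 of the 34 had a range over 1, each highest in replicate 3, against 2.76% of all genes. Without replicate 3 none did. The goblet cell gene Tff3 read 6.09, 6.20 and 10.35, and the mucin gene Muc2 5.79, 5.86 and 8.41. Alpi, the intestinal alkaline phosphatase, read 5.95, 5.996 and 9.42, and the apolipoprotein genes Apoa1 and Apoa4 6.85, 6.51 and 9.71, and 5.91, 5.72 and 8.92. Fabp2, the intestinal fatty acid-binding protein, read 4.49, 4.25 and 10.62, a factor of 82.3 and the largest of all 18193 genes, although its mean lay under the filter. Fabp1 (3.68, 3.60 and 8.26), Lct, the lactase gene (4.47, 4.67 and 8.21), and Clca1 (3.86, 3.98 and 7.76) were likewise highest there. Replicates 1 and 2 were low and close together in each of these genes. The brightest of the list, Vil1 (9.80, 9.71 and 10.75), Olfm4 (9.14, 9.28 and 10.92) and Dpp4 (9.43, 9.42 and 9.52), differed less. Cdx1, Cdx2, Lgr5 and Slc26a3, also genes of intestinal epithelium, lay at or under 5.68 on average and were not highest in replicate 3.

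Lymphoid genes differed in their order over the arrays. Of 9 lymphocyte genes above the median 6 were highest in replicate 1 and 3 in replicate 3. Of all 11703 genes 4021 and 3799 were highest in these arrays. Of the same 9 genes 5 were lowest in replicate 2 and 4 in replicate 3, against 3653 and 4939 of all 11703 genes. The list of plasma and B cells, too, was drawn up after values were seen. Of its 6 genes above the median 3 were highest in replicate 1 and 2 in replicate 3. A range over 1 occurred in 2, against 3.18% of all genes above the median, or in 1 between replicates 1 and 2 alone. Of these 6 genes 4 were lowest in replicate 2 and 2 in replicate 3. The counts over all genes are those given for the lymphocyte genes. The heavy chain gene Igha read 10.50, 10.16 and 12.67, and Jchain, which joins secreted antibodies, 9.49, 7.17 and 10.04, with replicate 2 the one apart. The granzyme gene Gzma of cytotoxic lymphocytes read 6.06, 5.71 and 8.79, while Il7r, at 7.30, 6.29 and 6.26, was highest in replicate 1. Of 19 cell cycle genes above the median 13 were highest in replicate 3, against 32.5% of all genes above it. A range over 1 was seen in 6 of the 19 (3.18% of all genes above the median) and, between replicates 1 and 2 alone, in none. The 6 included Mki67 (7.25, 7.35 and 9.90), Top2a (6.12, 6.13 and 8.14) and Cdc20 (6.88, 6.88 and 8.56). The cyclin gene Ccnd2 (14.09 ± 0.12), known to be the main D cyclin of beta cells, did not share this pattern, nor did Cdk4 (10.88 ± 0.06) and Ccnd1 (10.78 ± 0.08). Which cells the high values of replicate 3 came from was not tested.

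**Figure D5:**
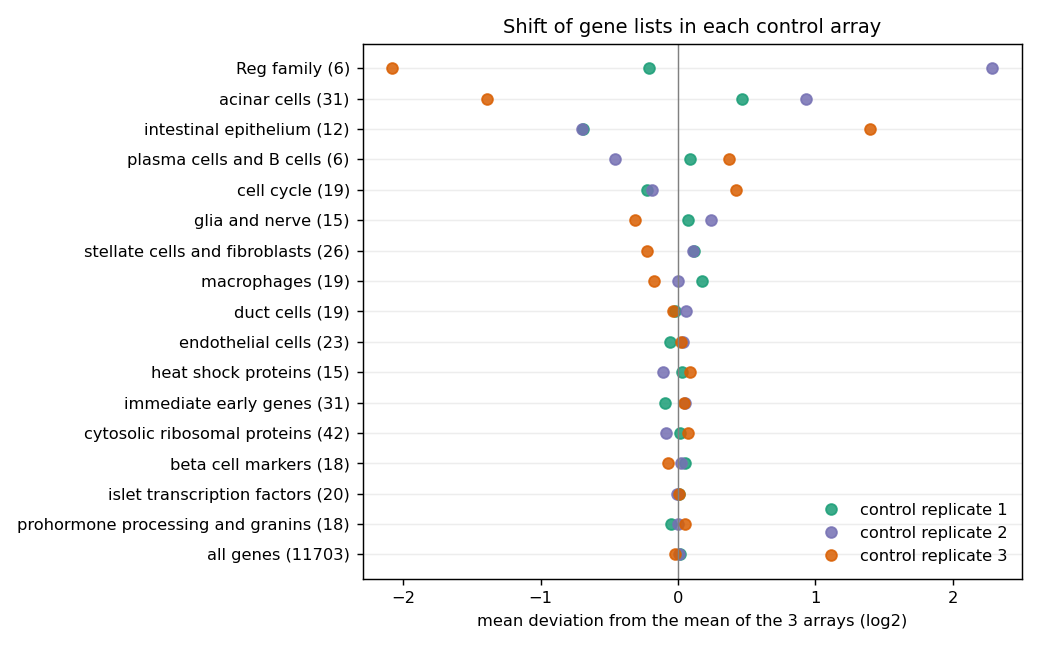
Mean deviation of each gene list from the mean of the 3 control arrays, a point per array, with the number of genes above the median of all probe sets in brackets. Reg genes run from -2.08 in replicate 3 to 2.29 in replicate 2, acinar genes from -1.39 to 0.93, and beta cell markers from -0.08 to 0.05; where fewer than 3 points show, they coincide.

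Among markers of the other endocrine cells, Cd9 (7.84, 8.21 and 7.04) and the amino acid transporter gene Slc38a5 (9.33, 10.01 and 8.997) had ranges over 1, and Loxl4, Ghsr, Sertm1 and Ptger3 were dim besides Ghrl. Of the beta cell markers Trpm5 (10.01, 9.86 and 9.38) and Gng12 (12.54, 13.15 and 12.52) followed Npy in range.

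Markers of non-endocrine cell types ranged from dim to bright. Among duct genes Clu (13.26 ± 0.29), Krt8 (12.50 ± 0.32) and Cdh1 (11.79 ± 0.20), which other epithelial cells also express, were bright, Krt7 and Krt19 read 11.44 ± 0.18 and 7.21 ± 0.13, and Sox9 and Cftr (5.20 ± 0.15) were dim. Tspan8 (11.14, 10.97 and 9.63) and Muc1 (6.59, 7.40 and 6.27) were lowest in replicate 3, and Cldn4 (8.90, 9.002 and 9.88) was highest there. Endothelial genes were led by Plvap (12.31 ± 0.18), Kdr (11.67 ± 0.07) and Mmrn2 (11.47 ± 0.41), with Cdh5 at 7.25 ± 0.11, and Pecam1 was dim at 6.23 ± 0.12. No endothelial gene above the median had a range over 1, against 3.18% of all genes above it.

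Of the stellate cell and fibroblast genes 18 of 26 were lowest in replicate 3, against 42.2% of all genes above the median, and 7 were highest there. The list averaged -0.23 in that array. Decorin (Dcn) read 12.28, 12.003 and 10.49, lumican (Lum) 8.65, 8.59 and 6.70, and Col6a3 10.19, 10.51 and 9.16. Col4a1 (12.71 ± 0.17) and Rgs5, a pericyte gene (11.94 ± 0.22), were the brightest of that list besides Dcn. Col1a1 (7.13 ± 0.03), Col1a2 (10.69 ± 0.29), Col3a1 (11.05 ± 0.43) and Pdgfrb (9.93 ± 0.14) had ranges under 1. Macrophage genes were led by Ctss (12.66, 12.59 and 11.64), H2-Aa (11.44 ± 0.37) and Csf1r (11.60, 11.34 and 11.04). C1qa, Lyz2 and Adgre1 had 8.76 ± 0.14, 8.44 ± 0.36 and 7.76 ± 0.40. H2-Eb1, an antigen presentation gene, read 8.76, 8.59 and 10.47, and Cx3cr1 8.31, 8.72 and 7.02, so these macrophage genes went opposite ways in replicate 3. Of the 19 macrophage genes above the median 11 were lowest and 3 highest there, against 42.2% and 32.5% of all genes above it.

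Lymphocyte genes had a median of 6.62, with Ptprc at 9.15 ± 0.29, Cd3e at 6.99 ± 0.09 and Cd79a at 6.69 ± 0.25. In glia and nerve, Ncam1 (11.10 ± 0.17), Mbp (10.95 ± 0.09) and Th (9.67 ± 0.21) were brightest, Sox10 had 8.03 ± 0.06 and S100b lay at the limit to dim (6.61 ± 0.44). Nefl (8.28, 8.54 and 6.98), Cdh19 (7.13, 7.57 and 6.38) and Prph (7.67, 8.23 and 7.09) were lowest in replicate 3. Of 12 fat cell genes 7 were dim, against 35.7% of all genes. Adipoq was among the dim ones (4.32 ± 0.11), while Lpl (13.58 ± 0.39) and Fabp4 (10.12 ± 0.49) were bright. The globin gene Hba-a1 (4.22 ± 0.13) was dim and Alas2, an enzyme of red cell haem synthesis, had 6.77 ± 0.38. Of the genes known for the liver 7 of 11 were dim, against 35.7% of all genes. Among the others, Ttr was bright, Alb had 6.97 ± 0.08 and Serpina1b read 8.27, 6.95 and 7.35. Tfrc, the transferrin receptor gene that red cell precursors and dividing cells use, read 10.16, 10.79 and 9.46.

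The Y-linked genes Eif2s3y (9.79, 9.81 and 9.71) and Kdm5d (8.86, 8.66 and 8.84) were above the median in each array. The labels give the animals as male. Xist, the transcript of the inactive X chromosome in females, had 6.70 ± 0.17, just above that median, and its dimmest of 3 probe sets averaged 4.15.

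Of 16 long noncoding and imprinted transcripts above the median 5 were highest and 9 lowest in replicate 3. Of all genes above the median 32.5% were highest and 42.2% lowest there. The transcripts of this list with the widest ranges were highest in replicate 3. Neat1, which builds nuclear paraspeckles, read 10.30, 10.28 and 12.21, but its other probe set above the median read 7.08, 7.19 and 7.10. Meg3, a maternally expressed RNA, read 12.32, 12.87 and 13.74, and Mirg of the same locus 6.67, 6.90 and 7.97. Malat1 read 12.16, 12.83 and 13.12, whereas Sgce, an imprinted sarcoglycan gene, was lowest in replicate 3 (9.39, 9.35 and 8.42). Of the imprinted genes, Peg3 and Gnas (13.97 ± 0.04) were bright and steady, and Nnat, Dlk1, Snrpn and Peg10 were dim. Inflammation genes were dim in 14 of 27 cases, against 35.7% of all genes. Nfkbia (13.32 ± 0.14), Sod2 (11.60, 11.26 and 10.88) and Cxcl1 (9.66 ± 0.13) were the brightest of that list, and Saa3 (7.87, 8.09 and 6.25) and Ccl5 (7.08, 6.79 and 7.998) had the widest ranges.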

How the data were processed

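Islet RNA of 3 vehicle-treated samples was read on 3 Affymetrix arrays from 1 µg of total RNA each, per the labels' protocols. The authors deposited 1 log2 value per probe set and array. MAS5 is named without a version or role, per the submitters' processing notes; how probes were summarised and scaled was not stated, and without detection calls no gene is called absent. The values were used as deposited. Columns were matched to samples by accession and grouped by title.

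Genes were named from the platform annotation, with symbols updated by gene ID (34741 of 34945 probe sets matched); 932 probe sets with several genes and 9160 with none were left out. Means, SDs, ranges and ranks were computed over the 3 arrays (Python 3.11.15, pandas 2.3.3). Genes were called dim at or under the median of all probe sets (6.61) and varying at a range over 1 above it. The range rule was tested on simulated data. The 35 gene lists (811 genes, 698 named on the array) and the rule for named genes (the 20 brightest, the 20 of widest range, and per list those of highest mean, those of widest range and the dim members) were chosen with earlier results of these data known, and 2 further lists, of intestinal epithelium and of plasma and B cells, after values were seen. There was no contrast and no p-value. Alternatives were quantile scaling, median centring, averaging over probe sets, other thresholds and leaving out each array.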

Additional observations from a re-analysis of the deposited data

How the results depend on the processing

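No paired analysis was possible because a single group was described and no test was made. Over 53 comparisons of a result with an alternative, 42 stayed within 1.5 times (counts) or 1 SD of the main value. No list deviation changed sign, and counts cannot change sign. The 42 say little about robustness, since some comparisons could hardly fail. A larger top group holds the 100 brightest genes by construction. The limit of 1 SD was wide for list deviations. For intestinal genes in replicate 3, 0.999 with no filter still counted as within it, against 1.395 in the main setting. Averaging over the probe sets of a gene kept 50 of the 100 brightest genes and gave 52 dim islet genes rather than 34 and 240 varying genes rather than 372. The dim islet genes were 8 with the 25th percentile as the limit and 54 with the median over genes. The varying genes were 168 with the filter at the 75th percentile, 387 after quantile scaling, 370 after median centring, and 44 to 265 with an array left out, the lowest without replicate 3. With an array left out, 91 to 96 of the 100 brightest genes were kept, and the 100 brightest then held 5 to 13 genes of the acinar list. The dim islet genes were then 32 to 34, and the acinar list spread over 0.486 to 2.291, the lowest without replicate 3. The acinar deviation in replicate 3 lay between -1.482 and -1.274 over 4 alternatives, and the agreement of probe sets was 55.1% after quantile scaling and 46.2% with no filter, rather than 59.9%. These 2 alternatives, and those on acinar counts and spread, were chosen after seeing the data. With no detection calls, how far a dim signal stands above background is unknown.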

Other observations

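Several of the genes with the widest ranges belonged to none of the gene lists. Odr4 read 7.23, 7.14 and 10.89 in replicates 1 to 3, Slco1a6, an organic anion transporter gene, 9.52, 9.46 and 11.86, and Aldh1a3, a retinaldehyde dehydrogenase gene, 6.54, 6.78 and 9.71. Tex15 read 9.74, 10.15 and 6.603, Psmc3ip 9.16, 9.14 and 6.82, and Cckar, the cholecystokinin receptor gene, 7.94, 9.10 and 5.37. Serpini2, a pancreatic protease inhibitor gene, read 9.31, 10.39 and 7.19, and Lbp, which encodes a lipopolysaccharide-binding protein, 9.50, 10.04 and 6.85. In each of these 8 genes replicate 3 was the array apart on the brightest probe set. Odr4's other probe set read 7.47, 8.005 and 8.47, with replicate 1 the one apart. Further probe sets of Aldh1a3 (6.39, 6.49 and 7.43), Psmc3ip (8.07, 8.03 and 6.996) and Lbp (7.46, 7.57 and 5.88) put replicate 3 apart in the same direction. Genes in which another array was apart were fewer. Iigp1, an interferon-induced GTPase gene, was highest in replicate 1 (10.89, 8.58 and 9.03), as was Lefty1 (8.65, 6.76 and 7.07), and Itih4 was highest in replicate 2 (6.84, 8.13 and 5.64). These genes were chosen after their values were seen.

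At the other end, the 20 steadiest of the 500 brightest genes had ranges of 0.0049 to 0.0405. Among them were Ins2, Ero1b, Rps4x, the citrate lyase gene Acly (13.72 ± 0.01), the poly(A)-binding protein gene Pabpc1 (13.37 ± 0.01), the stress-secreted factor Manf (12.85 ± 0.01), Pde3b, a phosphodiesterase that lowers cyclic AMP in beta cells (13.32 ± 0.02), and Ghr. Cyp3a11, a cytochrome P450 gene, lay under the filter on dim genes by its mean but read 3.93, 4.21 and 9.38.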
